A study of Mus musculus with 6 samples.

Results

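Mitochondrial fatty acid oxidation was described here through 10 genes chosen by gene symbol for their place in the pathway, out of 24239 genes on the array: Cpt1a, Cpt1b, Slc25a20, Cpt2, Acadvl, Acadl, Acadm, Hadha, Hadhb and Etfdh. The choice was made with earlier results of these data known. Shares of all genes and other lists set beside the 10 are therefore a description, not a test. In livers of mice given trichloroethylene (TCE), 9 of the 10 genes had a higher mean signal than in controls, where 7053 of 13275 detected genes did. In 8 of the 10 every TCE mouse lay above every control mouse, where 17.1% of detected genes showed this. Past the limits set for adjusted p and fold were Cpt1b, the muscle form of the enzyme that admits long-chain fatty acids into mitochondria, and Slc25a20, the carnitine-acylcarnitine carrier of the inner membrane. Slc25a20 was 2.08-fold higher, and the log2 change of Cpt1b, whose signal was dim and in 1 control not well above background, was 2.34 or 1.07 depending on the background correction. With the correction that gave 1.07, the log2 change of Slc25a20 was 0.89, below 2-fold. Acadm (1.91-fold) and Hadhb (1.78-fold) passed the adjusted p limit but not 2-fold, Acadl (1.93-fold) and Hadha (1.67-fold) passed neither, and Acadvl, the very long-chain acyl-CoA dehydrogenase, was at 0.933 of its control signal with overlapping groups.

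The study used male B6C3F1 mice, a hybrid of the C57BL/6 and C3H strains, at 7 weeks of age. TCE, an industrial solvent, was given by gavage in corn oil, daily over 5 days, at 1000 mg/kg b.w. Controls received the oil alone. The arrays cover 3 mice of each of these groups, not every animal treated, and all 6 took in the oil. Each liver gave 1 RNA sample, which was labeled in 1 colour and run on 1 Agilent mouse array. None of the labels describes a transgene or a genetic change, and no livers were pooled.

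Long-chain fatty acids reach the mitochondrial matrix as carnitine esters. A carnitine palmitoyltransferase 1 on the outer membrane makes the ester, the carrier Slc25a20 exchanges it across the inner membrane, and Cpt2 turns it back into acyl-CoA. Acyl-CoA dehydrogenases of graded chain length, the trifunctional protein and a thiolase then shorten the chain, and electrons leave through electron transfer flavoprotein and Etfdh to ubiquinone. In liver the pathway is most active in fasting, feeds ketone body synthesis and is under the control of the nuclear receptor Ppara.

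Each probe is given as its log2 signal after the arrays were quantile normalized, a scaling that gives all arrays the same distribution of signals. The signals of separate probes are not on a common scale, so only changes were set against each other. The arrays measured 23529 to 24948 probes well above background, and 0 spots were saturated. Between mice of the same group, Pearson's r over probes was 0.978 to 0.990, and between groups it was 0.971 to 0.982. Control mouse 1 was on a slide of its own and the other 5 mice shared the second slide. Probes were called detected if all 3 arrays of a group measured them well above background, and each detected probe was tested with limma, a linear model that pools the spread over probes, with Benjamini-Hochberg adjustment over 22718 probes. In whole liver, fewer cells of a type and less RNA per cell cannot be told apart. Hepatocyte markers were all detected (9 of 9). By adjusted p 0 of them passed, where 1.80% of all detected genes passed as higher and 0.588% as lower. In 3 of the 9 every TCE mouse lay below every control, and in 1 every TCE mouse lay above. Of 13275 detected genes 1436 and 2267 did so. The log2 of the summed signal of these markers, in which the brightest probes weigh most, was 20.59 to 20.61 in controls and 20.48 to 20.57 in TCE mice.

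All 13 probes of the 10 genes were detected, and Cpt1a, Cpt1b and Cpt2 had 2 probes each, of which the one with the higher mean signal represented the gene. With the limits set at an adjusted p no higher than 0.05 and at least a 2-fold change (together the threshold), 2 of the 10 genes were higher in TCE mice (Cpt1b and Slc25a20), where 1.30% of the 13275 detected genes were. Cpt1b entered the test through the TCE group alone, since 2 of 3 controls were above background, and with probes required above background on all arrays the count was 1. In the lower direction 0 of the 10 genes and 0.429% of all detected genes passed. By adjusted p alone 4 of the 10 genes were higher, with Acadm and Hadhb added, against a background of 1.80%, and 0 were lower, against 0.588%. The median log2 change was 0.79 over the 10 genes and 0.02 over all detected genes. With any single mouse left out, the number of genes past the adjusted p limit fell from 4 to 0 or 1, while the median change stayed between 0.65 and 0.91.

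**Figure D1:**
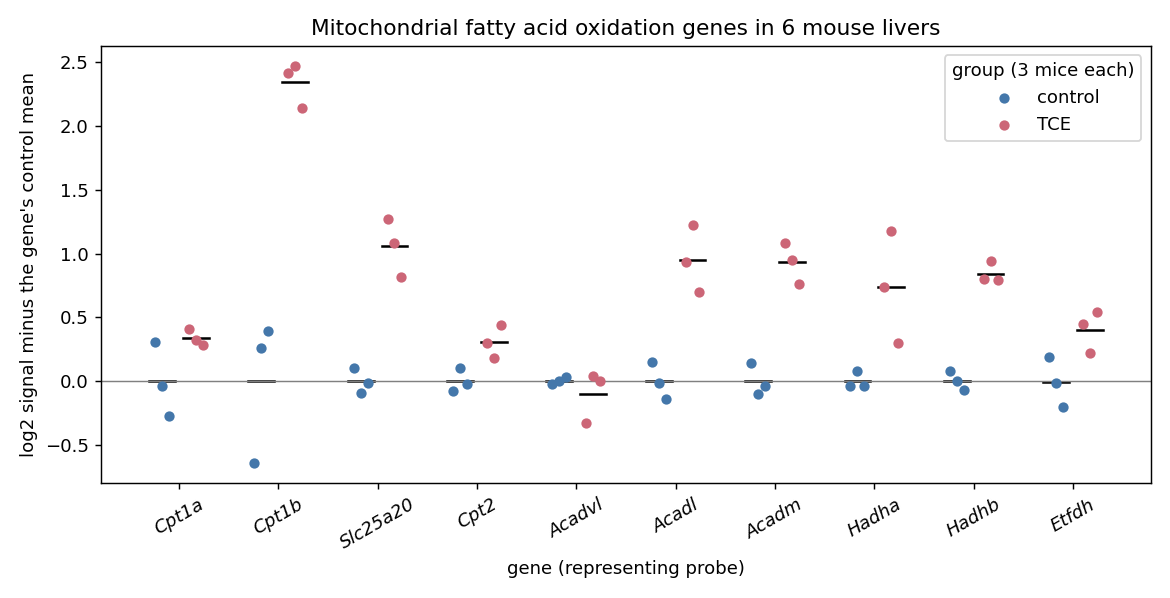
Log2 signal of each mouse minus the control mean of the same gene (vertical axis) for the 10 genes (horizontal axis), with 3 control and 3 TCE mice per gene as points and group means as bars. The TCE mice of Cpt1b lay 2.14 to 2.46 above the control mean, whereas those of Acadvl lay between -0.33 and 0.04.

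The carnitine shuttle held both genes past the threshold. Cpt1b is the carnitine palmitoyltransferase 1 of heart and skeletal muscle, and its liver counterpart is Cpt1a. Their probes were read from the deposited scanner output, and the last 30 of 60 bases are shown because the comparison of the isoforms depends on which transcript each probe binds. The capitals mark AATAAA, the polyadenylation signal, which 2 of the 13 probes held and 10.1% of all probes on the array.

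Cpt1b, first probe, chr15:89246836-89246895 (mm9, minus strand): acttggAATAAAttcttactttagaacctt
Cpt1b, second probe, chr15:89247106-89247165 (mm9, minus strand): attggagcagcaggggaattttgatttttt
Cpt1a, first probe, chr19:3385374-3385433 (mm9, plus strand): cggagtattcctgctagtacccaagtgtga
Cpt1a, second probe, chr19:3384060-3384119 (mm9, plus strand): ctaatggataaagggatttaaatgctggtg

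The longest run of bases that a Cpt1a probe shared with a Cpt1b probe, over the whole 60 bases, was 7. Exon and untranslated region were not assigned, since no annotation of mm9 was used here.

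The first Cpt1b probe had log2 signals of 4.74, 5.64 and 5.77 in control mice 1, 2 and 3, and of 7.79, 7.85 and 7.52 in TCE mice 1, 2 and 3. The groups were far apart, the TCE mice were close together, and control mouse 1, on its own slide, was the lowest and was not well above background. The mean went from 5.38 ± 0.56 (SD, n = 3) to 7.72 ± 0.17 (SD, n = 3), a log2 change of 2.34 (SE 0.29), or 5.05-fold with a 95% confidence interval of 3.14 to 8.13 and a limma adjusted p of 0.0188. Since the control mean holds a value not well above background, and only TCE mice brought the probe into the test, this fold is not a firm value. The second Cpt1b probe read 4.72, 5.61 and 5.65 in controls and 6.85, 7.29 and 7.19 in TCE mice. It showed the same order, with control mouse 1 again lowest and below the background limit, and a log2 change of 1.79 (SE 0.28, limma adjusted p = 0.0366), or 3.45-fold. Without control mouse 1, which leaves mice of the same slide, the change of the first probe was 2.02 with a limma adjusted p of 0.0180. When background was modeled with normexp and an offset of 50, the log2 change of Cpt1b was 1.07. Leaving out control mouse 2 or any TCE mouse put the adjusted p of Cpt1b above 0.05, at 0.0524 to 0.0803.

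Because Cpt1b is abundant in muscle and brown fat, markers of those tissues were measured in the same livers. Of 12 skeletal and heart muscle markers 2 were detected (Myh6 and Tnni2), and the defining genes Ckm, Acta1, Mb and Myh7 were not. The log2 of the summed signal of the detected muscle markers was 6.92 to 7.19 in controls and 5.29 to 6.11 in TCE mice. Both probes were dim, and Myh6, a heart myosin heavy chain, was well above background in 3 of 3 controls and in 0 of 3 TCE mice, at least 2.21-fold lower there (limma adjusted p = 0.0413), so that it entered the test through the controls alone. Of 7 markers of brown and white adipocytes, among them Ucp1, Cidea and Adipoq, 0 were detected. For smooth muscle markers (4 of 6 detected) the log2 of the summed signal was 11.31 to 11.58 in controls and 11.29 to 12.01 in TCE mice. In that list Tagln had a log2 change of 0.40, and Cnn1 (-2.36, well above background in 0 of 3 TCE mice), Acta2 (-0.24) and Smtn (-0.22) were on the other side of 0, with limma adjusted p values of 0.114 or more. The part of these tissues in the Cpt1b result was not tested.

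Cpt1a, the liver isoform, read 14.09, 13.74 and 13.51 in controls and 14.19, 14.10 and 14.06 in TCE mice. The TCE mice agreed closely, the controls were spread, and control mouse 1 lay inside the TCE range. The log2 change was 0.34 (95% confidence interval -0.07 to 0.75, limma adjusted p = 0.355), which allows a fold of 0.955 to 1.68. The second Cpt1a probe changed by 0.06 (95% confidence interval -0.58 to 0.70, limma adjusted p = 0.935). To ask whether the isoforms changed by the same factor, the Cpt1a signal was subtracted from the Cpt1b signal in each mouse. Relative to the control mean this difference was -0.95, 0.30 and 0.66 in controls and 1.99, 2.14 and 1.85 in TCE mice. By these signals, with control mouse 1 not well above background for Cpt1b, the change of Cpt1b exceeded that of Cpt1a by 2.00 log2 units, and with normexp by 0.72. The groups did not overlap, and the exact permutation test (two-sided) gave p = 0.1, the smallest value that 3 mice against 3 allow. Only TCE mice brought the Cpt1b probe past the detection filter, so these values describe the difference and are not separate support for it. Without control mouse 1 the difference was 1.53.

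Slc25a20 carries acylcarnitine inward and free carnitine outward. Its probe is shown whole, since this was the other gene past the threshold and had only 1 probe.

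Slc25a20, chr9:108585399-108585458 (mm9, plus strand): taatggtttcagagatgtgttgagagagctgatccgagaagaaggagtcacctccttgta

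The signals were 10.27, 10.08 and 10.16 in controls and 11.44, 11.25 and 10.99 in TCE mice. The controls were tight and all TCE mice were higher, TCE mouse 3 the least. The mean went from 10.17 ± 0.10 (SD, n = 3) to 11.23 ± 0.22 (SD, n = 3), which is 2.08-fold (95% confidence interval 1.62 to 2.66, limma adjusted p = 0.0282). The call held without TCE mouse 3 (adjusted p = 0.0363) and was lost without any of the other 5 mice, at 0.0777 to 0.127, as well as with the slide as a block, at 0.0829. The slide block compares the same mice as the fit without control mouse 1, so it is not a further check, here or for other genes. With normexp the log2 change was 0.89 with a limma adjusted p of 0.0349, so Slc25a20 no longer reached 2-fold. Cpt2, the inner membrane transferase, read 13.93, 14.11 and 13.99 in controls and 14.31, 14.19 and 14.45 in TCE mice. Its groups were separated by 0.08, and the log2 change of 0.31 (95% confidence interval 0.01 to 0.60) did not pass (limma adjusted p = 0.267). The second Cpt2 probe changed by 0.13 (limma adjusted p = 0.698) with overlapping groups.

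**Figure D2:**
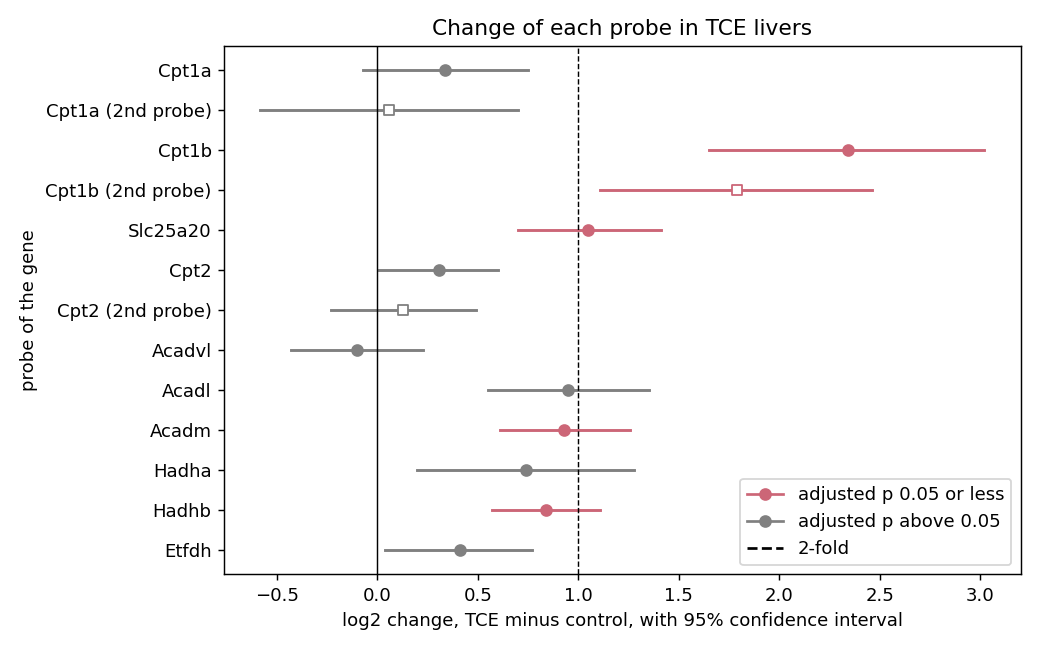
Log2 change in TCE against control livers (horizontal axis) with its 95% confidence interval for each of the 13 probes (vertical axis). Filled circles are the probes that represent the genes, open squares are second probes, red marks an adjusted p of 0.05 or less and the dashed line is 2-fold. Both Cpt1b probes (2.34 and 1.79) and Slc25a20 (1.05) lay to the right of that line, and the interval of Acadvl spanned 0.

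Among the acyl-CoA dehydrogenases, which carry out the first step of each cycle, the medium-chain enzyme passed the adjusted p limit, and the long-chain and very long-chain enzymes did not. Acadm, the medium-chain enzyme (chr3:153585670-153585729, mm9), read 14.79, 14.55 and 14.61 in controls and 15.73, 15.60 and 15.41 in TCE mice. All TCE mice were well clear of the controls, and the change was 1.91-fold (95% confidence interval 1.52 to 2.39, limma adjusted p = 0.0296). The call by adjusted p was lost without any single mouse, at 0.0512 to 0.135, although the log2 change stayed between 0.87 and 1.02. Acadl, the long-chain enzyme (chr1:66877673-66877732, mm9), read 11.85, 11.69 and 11.56 in controls and 12.63, 12.92 and 12.40 in TCE mice. The groups were separated by 0.55 log2 units, the change was 1.93-fold (95% confidence interval 1.46 to 2.56), and the limma adjusted p of 0.0501 was just outside the limit. It was inside the limit in 4 of 15 alternatives, among them normalization to the 75th percentile (0.0434).

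Acadvl (chr11:69823722-69823781, mm9) read 16.11, 16.13 and 16.16 in controls and 15.80, 16.17 and 16.13 in TCE mice. The controls were nearly equal, and only TCE mouse 1 lay apart, below them. The fold was 0.933 (95% confidence interval 0.745 to 1.17, limma adjusted p = 0.742), so increases above 1.17-fold were outside the interval. The log2 change was -0.10 and turned to 0.02 without TCE mouse 1. Measured within each mouse, the change of Acadm exceeded that of Acadvl by 1.03 log2 units and that of Acadl did so by 1.05, each without overlap between groups and with an exact permutation p of 0.1, the smallest possible. These pairs were chosen after their values were seen.

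The trifunctional protein consists of an alpha subunit, Hadha, with the hydratase and long-chain hydroxyacyl-CoA dehydrogenase activities, and a beta subunit, Hadhb, with the thiolase. The genes lie head to head, and the 272 bases between their starts are shown because both subunits had higher signals in every TCE mouse. The sequence is from RefSeq (GRCm38.p6), plus strand, with Hadha leaving to the left and Hadhb to the right. Capitals mark GGGCGG, the GC box.

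Between Hadha and Hadhb, chr5:30154981-30155252: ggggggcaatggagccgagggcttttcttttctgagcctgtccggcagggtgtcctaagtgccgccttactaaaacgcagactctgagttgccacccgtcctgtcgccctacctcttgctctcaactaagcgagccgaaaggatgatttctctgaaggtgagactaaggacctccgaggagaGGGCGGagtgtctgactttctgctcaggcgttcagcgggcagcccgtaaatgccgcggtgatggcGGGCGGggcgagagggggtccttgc

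Hadha read 11.36, 11.48 and 11.36 in controls and 12.14, 12.58 and 11.70 in TCE mice. Its TCE mice were all higher but widely spread, and the 1.67-fold change (95% confidence interval 1.14 to 2.43) did not pass (limma adjusted p = 0.167). Hadhb read 14.28, 14.20 and 14.13 in controls and 15.00, 15.14 and 14.99 in TCE mice. Both Hadhb groups were tight, and the change was 1.78-fold (95% confidence interval 1.48 to 2.15, limma adjusted p = 0.0251). This call too was lost without any single mouse, at 0.0631 to 0.122, with log2 changes of 0.78 to 0.89. The change of Hadhb exceeded that of Hadha by 0.10 log2 units, with an exact permutation p of 0.800 for a pair chosen after its values were seen.

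Etfdh, the flavoprotein that hands the electrons to ubiquinone (chr3:79407806-79407865, mm9), read 14.51, 14.31 and 14.12 in controls and 14.77, 14.54 and 14.86 in TCE mice. The groups were separated by 0.03, and the log2 change of 0.41 (95% confidence interval 0.04 to 0.77) did not pass (limma adjusted p = 0.240).

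Windows of 300 bases around the start were given by RefSeq (GRCm38.p6) for 9 of the 10 genes, all but Cpt1b. Those of Hadha and Hadhb share most of their bases and were counted separately, so the 9 windows are not all distinct DNA. All windows were searched on both strands for letters of known regulatory elements, as a description only. The nuclear receptor element AGGTCA was in 3 of the 9 windows (Cpt1a, Acadvl and Acadm) and in 16.3% of 32851 windows. A direct repeat, with copies of AGGTCA separated by 1 base and at most 2 mismatches, was in 1 of the 9 (Slc25a20) and in 3.9% of all. This pattern is made of the letters of the single site, but the Slc25a20 window held no intact AGGTCA. The GC box GGGCGG was in 7 of the 9, all but Acadvl and Acadm, and in 35.7% of all windows. The CCAAT box was in 2 of the 9 (Cpt1a and Etfdh) and in 37.4% of all, and TCAAGGTCA, which holds AGGTCA, in 0 of the 9 and in 0.4% of all. The median GC content was 58.7% in the 9 windows and 52.7% in all.

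The TCE mice lay close to each other when the pathway was averaged. The mean deviation from the control mean over the 10 genes was 0.02, 0.02 and -0.04 in control mice 1, 2 and 3, and 0.80, 0.86 and 0.68 in TCE mice 1, 2 and 3. Without Cpt1b the TCE mice were at 0.63, 0.68 and 0.52. TCE mouse 3 had the lowest signal of its group in 7 of the 10 genes, and TCE mouse 2 exceeded every control in all 10.

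**Figure D3:**
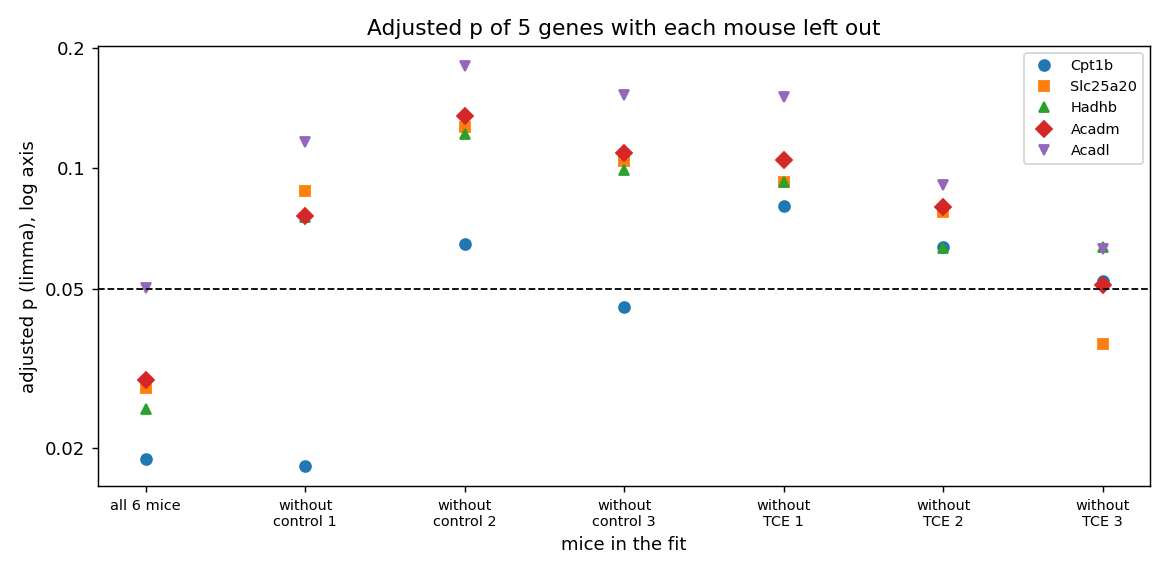
Adjusted p by limma on a log axis (vertical) for 5 genes when all 6 mice were fitted and when each mouse was left out (horizontal axis). The dashed line is 0.05. With a mouse left out, Cpt1b was at or below the line in 2 of 6 fits, Slc25a20 in 1, and Hadhb, Acadm and Acadl in 0.

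A wider list of mitochondrial fatty acid oxidation genes had a lower median change. It also held enzymes of amino acid and propionate breakdown, such as Ivd, Acadsb, Pcca and Mut, so its median and counts depend on that make-up. Of 28 listed genes 27 were detected, all but Cpt1c, and 20 were higher and 7 lower (7053 and 6222 of all detected genes), with a median log2 change of 0.31 against 0.79 for the 10 genes above. Past the threshold were 4, all higher, where 1.30% of all detected genes were. These were the carnitine transporter of the cell membrane Slc22a5 (1.80, SE 0.23, limma adjusted p = 0.0207), carnitine acetyltransferase Crat (1.78, SE 0.30, limma adjusted p = 0.0428), and Eci1 (1.16, SE 0.11, limma adjusted p = 0.00734) and Decr1 (1.02, SE 0.14, limma adjusted p = 0.0282), the auxiliary enzymes for unsaturated fatty acids. With a mouse left out, 0 to 2 genes of the list were past the threshold, and Eci1 passed the adjusted p limit in 5 of 6 such fits, Slc22a5 in 2, Decr1 in 1 and Crat in 0. With the slide as a block the limma adjusted p was 0.0987 for Crat and 0.0975 for Decr1.

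Among 19 genes that regulate fatty acid entry and oxidation or respond with it, 14 were higher and 5 lower (7053 and 6222 of all detected genes). Past the threshold were 5, all higher, where 1.30% of all detected genes were. The 4 with the largest changes were the fasting hormone Fgf21 (10.4-fold, limma adjusted p = 0.0115), the pyruvate dehydrogenase kinase Pdk4 (7.77-fold, limma adjusted p = 0.00657), and the uncoupling proteins Ucp3 (3.06-fold, limma adjusted p = 0.00258) and Ucp2 (2.97-fold, limma adjusted p = 0.00649). In Pdk4, for instance, controls read 7.47, 7.15 and 7.17 and TCE mice 10.51, 10.52 and 9.63. Pdk4, Ucp2 and Ucp3 passed the adjusted p limit in 6 of 6 fits with a mouse left out, and Fgf21 in 5. The other gene past the threshold, Angptl4 (2.05-fold, limma adjusted p = 0.0191), passed in 2. With the slide as a block its limma adjusted p was 0.0733. With a mouse left out, 3 to 5 genes of the list were past the threshold. The list's median log2 change was 0.20.

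Peroxisomal beta-oxidation, which shortens very long chains before mitochondria take over, had 14 of 17 genes higher, against the same 7053 of 13275, and a median log2 change of 0.60. Past the threshold were 3, all higher, where 1.30% of all detected genes were. They were the bifunctional enzyme Ehhadh (9.55-fold, limma adjusted p = 0.00077), the thiolase Acaa1b (4.01-fold, limma adjusted p = 0.00629) and Ech1 (2.18-fold, limma adjusted p = 0.0259). Ehhadh read 12.88, 12.58 and 12.70 in controls and 16.11, 16.02 and 15.80 in TCE mice. Ehhadh and Acaa1b passed the adjusted p limit in 6 of 6 fits with a mouse left out, and Ech1 in 1. Of the genes the authors' annotation gives the GO term fatty acid beta-oxidation, a list added after the data were examined, 26 of 29 were detected, 3 were past the threshold (all higher, against the same 1.30%) and the median log2 change was 0.48. That list holds 4 of the 10 genes above.

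Transcripts of the respiratory chain and citrate cycle were listed with mitochondrial content in mind, but that content was not measured. All 36 listed genes were detected, 28 were higher and 8 lower, against 7053 and 6222 of all detected genes. By adjusted p 0 passed, where 1.80% of all detected genes passed as higher and 0.588% as lower. The log2 changes were between -0.25 and 0.56, with a median of 0.15. In 13 of the 36 every TCE mouse lay above every control, and in 1 every TCE mouse lay below. Of 13275 detected genes 2267 and 1436 did so. The lowest adjusted p values there were those of Mdh2 (0.38, limma adjusted p = 0.131) and Suclg1 (0.52, limma adjusted p = 0.135). Differences between lists were described by their counts and medians and were not tested.

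**Figure D4:**
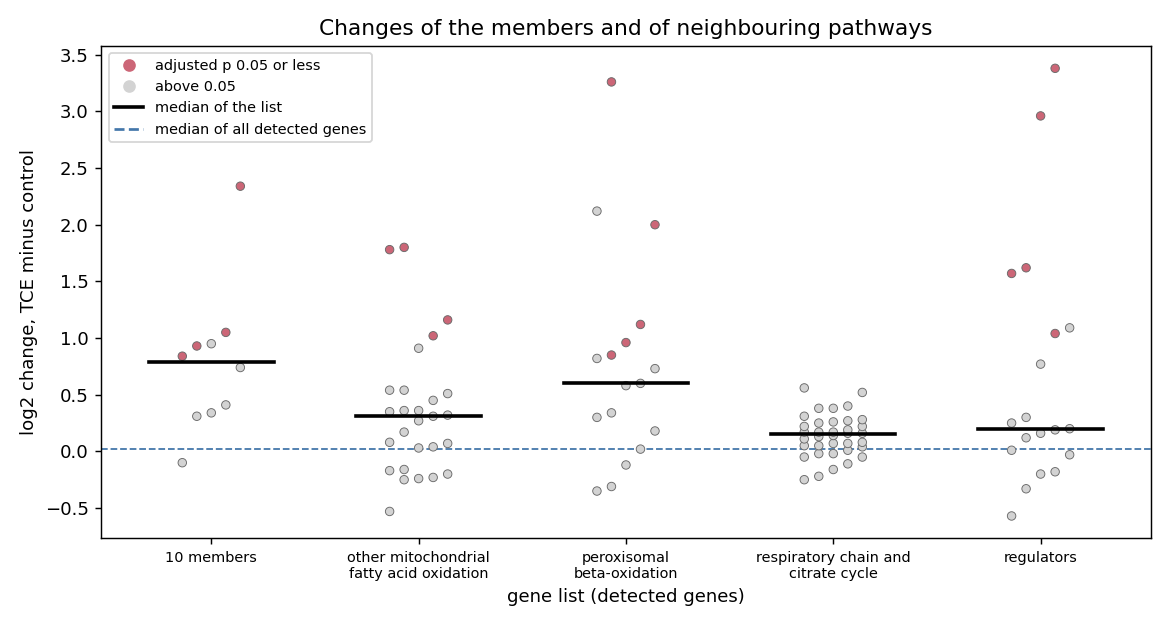
Log2 change in TCE against control livers (vertical axis) of the detected genes of 5 lists (horizontal axis), red where the adjusted p was 0.05 or less, with the list median as a bar and the median of all detected genes, 0.02, as a dashed line. The medians were 0.79 for the 10 genes, 0.31 for other mitochondrial fatty acid oxidation, 0.60 for peroxisomal beta-oxidation, 0.15 for the respiratory chain and citrate cycle and 0.20 for the regulators.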

How the data were processed

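Per the labels and the study's methods, cRNA was labeled with Cyanine-3 and hybridized to Agilent 8x60K mouse arrays, and the authors read the scans with Agilent Feature Extraction (version 10.7.1.1). The deposited scanner output gives an intensity per spot after background subtraction. The deposited table of the series gives authors' group means on the log2 scale after quantile normalization, and GO annotation. Its 6 columns of flags per array were not used, since their names and the sample titles differ.

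Control spots were left out (55681 probes remained), spots flagged as outliers (123 to 189 per array) were treated as missing, log2 was taken of the processed intensity without a pseudocount, repeated spots were averaged by probe, and quantile normalization followed. The group means lay within 0.01 of the authors' for 99.98% of probes. The test (2-sided) of detected probes was limma (version 3.58.1, lmFit and eBayes) with group alone in the model, run in R 4.3.3. Other packages were statmod 1.5.0 and data.table at 1.17.8. The number of arrays, 3 per group, limits the precision. The methods' threshold of 2-fold was kept, and their unadjusted t-test was an alternative. Fits were tested on simulated data. The exact permutation test ran over all 20 splits of the mice into groups of 3.

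The 10 genes and the 16 gene lists were chosen with earlier results of these data known. All 10 genes were named, and from each pathway or comparison list up to 4 genes with the largest changes past the threshold, or the 2 with the lowest adjusted p where fewer than 2 passed. Angptl4 was named in addition, for the stability of its call. Another list is not reported here. Marker genes were named where their list stood out or was not detected. Besides those in the report, the lists were markers of Kupffer cells and macrophages (7 of 7 detected, 0 called), endothelial and stellate cells (7 of 7, 0 called) and bile duct and lymphocytes (4 of 7, 0 called). Of all detected genes 1.30% were called as higher and 0.429% as lower. In these lists 6 of 7, 6 of 7 and 4 of 4 detected markers had a lower mean in TCE mice, as did 6222 of 13275 detected genes. Of the replicate numbers, samples of the same number deviated from their group means with correlations of 0.09, 0.01 and -0.09, so the numbers did not pair the mice. The alternatives were the 75th percentile, normexp with an offset of 50, keeping outlier spots, array weights, a block for the slide or for the replicate number, 2 other filters on dim probes, the t-test, the mean of all probes of a gene, and each mouse left out. Control mouse 1 was alone on its slide, so the slide block compares the same mice as the fit without that mouse. The GO list, 3 of the pairs of genes, the unadjusted count and the lists without a mouse or with the slide as a block were added after the data were examined.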

Additional observations from a re-analysis of the deposited data

How the results depend on the processing

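The number of genes past the threshold was 2. It stayed 2 with the 75th percentile, with outlier spots kept, with array weights and with the mean of all probes. With normexp it was 1, since Slc25a20 fell below 2-fold and Cpt1b did not. It was 0 without a filter on dim probes, 0 with a replicate block and 1 with the slide as a block. With probes well above background on all arrays it was 1, and Cpt1b was not tested. The methods' t-test gave 0 after adjustment and 2 before it, and fits with a mouse left out gave 0 to 1. By adjusted p alone 4 genes were called, and 0 were called without a filter on dim probes, 0 with a replicate block, 1 with the slide as a block, 7 by the methods' t-test before adjustment and 0 after it, 8 by the unadjusted limma p and 0 to 1 with a mouse left out. The count was 5 with the 75th percentile, with normexp and with array weights. It stayed 4 with outlier spots kept, with probes above background on all arrays and with the mean of all probes. The calls over all probes moved as well: 456 probes passed the adjusted p limit, against 104 without a filter, 63 with the replicate block, 177 with the slide as a block, 58 by the adjusted t-test and 114 to 252 with a mouse left out. With the 75th percentile 471 passed, with normexp 514 and with array weights 797. Before adjustment, the limma p was under 0.05 for 4072 of the 22718 detected probes. For the unadjusted t-test no count over all probes is given. The median change of the 10 genes, 0.79, was 0.65 to 0.91 with a mouse left out. The difference between Cpt1b and Cpt1a, 2.00, was above 0 under each alternative run, from 0.72 with normexp to 2.33. The only change of the 10 genes that turned direction was that of Acadvl, which ranged from -0.17 to 0.02 with a mouse left out and was above 0 without TCE mouse 1. The mice do not share a pairing by number, so calls lost under the replicate block are not described as a weaker effect. The number of arrays and the dim Cpt1b signal in controls limit these comparisons, and the causes of the lost calls were not tested.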
